A study of Drosophila melanogaster with 14 samples.

Results

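Embryos homozygous for a deletion of both *spalt* genes were compared with embryos heterozygous for it at early stage 17, around the end of embryogenesis, using 5 of the 14 mRNA-Seq libraries of the series. The homozygous group (Ho17, 3 libraries named a, b and c) was homozygous for *Df(2L)32FP-5*, and the heterozygous group (He17, 2 libraries named ab and c) carried 1 copy of the same deficiency. Wild type embryos of the same stage (WT17, Oregon R, 2 libraries named ab and c) entered the fit as a further genotype. *Df(2L)32FP-5* is a small deficiency that lacks *spalt major* (*salm*) and *spalt-related* (*salr*). Ho embryos came from a stock balanced over a GFP-marked *CyO* chromosome, and He embryos from a cross of females of that stock with *white* males. In both cases embryos without GFP were selected. The study had back-crossed the mutant stock to the balancer stock to replace its other chromosomes. Because He embryos had fathers from another stock, the genetic background of the 2 groups was not the same. Each library was made from whole embryos, in pools of 50, and the study describes the pools as independent preparations. It also states that technical replicates were grouped, with WT16ab as its example, so the libraries named ab may hold merged data. He17ab and WT17ab had 1376 and 1534 genes at 0 reads. The other stage 17 libraries had between 2427 (Ho17a) and 2803 (WT17c). The sample titles place these libraries at stage 17, whereas the stage field of every library reads stage 16, 13 to 14 hours, and the titles were followed.

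Spalt proteins are zinc finger transcription factors that act in several embryonic tissues of the fly, among them the central and peripheral nervous system and the main tracheal trunk. They are also required for the formation of the embryonic oenocytes, large cells that arise beside the chordotonal organ precursors in the abdomen. Oenocytes make very long chain fatty acids and hydrocarbons that reach the cuticle and the tracheal lining. At stage 17 the embryo completes its cuticle, fills its tracheae with air and prepares to hatch, and the study chose this stage because the degeneration seen in the nervous system of Ho embryos at stage 16 was no longer visible.

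Reads summed over genes, some of which share reads, numbered between 17349165 and 22516573 in the 5 libraries, and 13421734 and 23184257 in the WT17 libraries. A gene with 0 reads in 1 of the 7 libraries could still be present at up to 3 reads, which is 0.129 to 0.224 CPM (reads per 1000000 reads on genes), and this limit covers counting error only. Levels are given in CPM, recovered from the deposited log2-like values, and differences are Ho17 minus He17 on that deposited log2 scale. A gene was called when its adjusted p was under 0.05 in limma (Benjamini-Hochberg over 11280 genes, 7 libraries with 1 mean per genotype). In a principal component analysis of the 7 libraries the first component held 32.7% of the variance and placed Ho17a at -57.8, Ho17b at -61.3 and Ho17c at -13.8, against 13.5 for He17ab and 30.8 for He17c. Ho17c was thus the Ho17 library nearest to He17 on this axis, and it was the nearest of the 3 in 376 of the 552 genes that were nominally higher in Ho17 (unadjusted p under 0.05) and in 241 of the 478 that were nominally lower.

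The deleted genes themselves separated the 2 groups. *salm* (CG6464) had 5.17, 0 and 0.895 CPM in Ho17a, Ho17b and Ho17c, against 46.0 and 59.6 CPM in He17ab and He17c, and 57.2 and 68.4 CPM in WT17. *salr* (CG4881) had 0.646, 0 and 0.105 CPM in Ho17, against 35.3 and 38.5 CPM in He17, and 44.9 and 57.5 CPM in WT17. Ho17b thus held no read of either gene, whereas Ho17a held 96 reads of *salm*, 9.79% of the He17 mean, and 12 reads of *salr*, 1.75% of the He17 mean. The source of these reads was not tested. The difference of *salr* was -6.35 (SE 0.63) and was called (adjusted p = 0.0104 from limma). That of *salm*, -5.86 (SE 1.02), had a similar size but was not called (adjusted p = 0.0789 from limma), and the 3 Ho17 libraries spread over a standard deviation of 2.29 on the log2 scale. He17 means lay below WT17 means by 0.38 for *salm* and by 0.64 for *salr* on the log2 scale, and neither of these differences was called in limma.

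The genes next to *salm* and *salr* were followed on each side out to the first with reads in each Ho17 library. *sala* (CG4922), the neighbour of *salm*, had 22.0, 4.34 and 13.3 CPM in Ho17, against 4.84 and 8.62 CPM in He17, and 1.27 and 0 CPM in WT17. The Ho17 and He17 ranges overlapped (difference 0.81, SE 0.94, adjusted p = 0.865 from limma), while both WT17 libraries lay below all 5 libraries that carry the deficiency. On the other side of *salr*, *CG14926* and *Osi21* had at most 14 reads in any stage 17 library and were not tested. *mre11*, a DNA repair nuclease gene, was the first gene on that side with reads in each Ho17 library, with 6.95, 20.3 and 2.48 CPM in Ho17, against 17.8 and 5.77 CPM in He17.

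Across all 11280 genes tested, 13 fell in Ho17 (0.115%) and 1 rose (0.00887%). The next smallest adjusted p after these 14 genes was 0.0514, and 24 genes had adjusted p-values from 0.05 to 0.08 in limma. In all 13 genes that fell, each Ho17 library lay below both He17 libraries, as in 15.4% of all genes tested, and below both WT17 libraries as well. Of the 13, 4 (*salr*, *CG18609*, *CG4017* and *CG5255*) reached the read minimum only through the He17 and WT17 libraries. He17 minus WT17 for the 13 genes ran from -1.37 to 0.66, and none of the 13 was called in that comparison, which called 2 genes higher (0.0177%) and 0 lower of 11280 in limma, with 206 higher (1.83%) and 309 lower (2.74%) at an unadjusted p under 0.05. Both comparisons use the same He17 libraries. Leaving out He17c left none of the 14 calls (273 genes higher and 254 lower at an unadjusted p under 0.05 in limma). Leaving out He17ab left 2 of the 13 lower calls, Ho17a 4, and WT17ab or WT17c 3, whereas all 13 held without Ho17b or without Ho17c. Where 1 He17 library was left out, the other was assumed to vary like the other groups. The exact negative binomial test on recovered reads called all 14 genes, among 247 higher (2.19%) and 81 lower (0.718%).

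**Figure D1:**
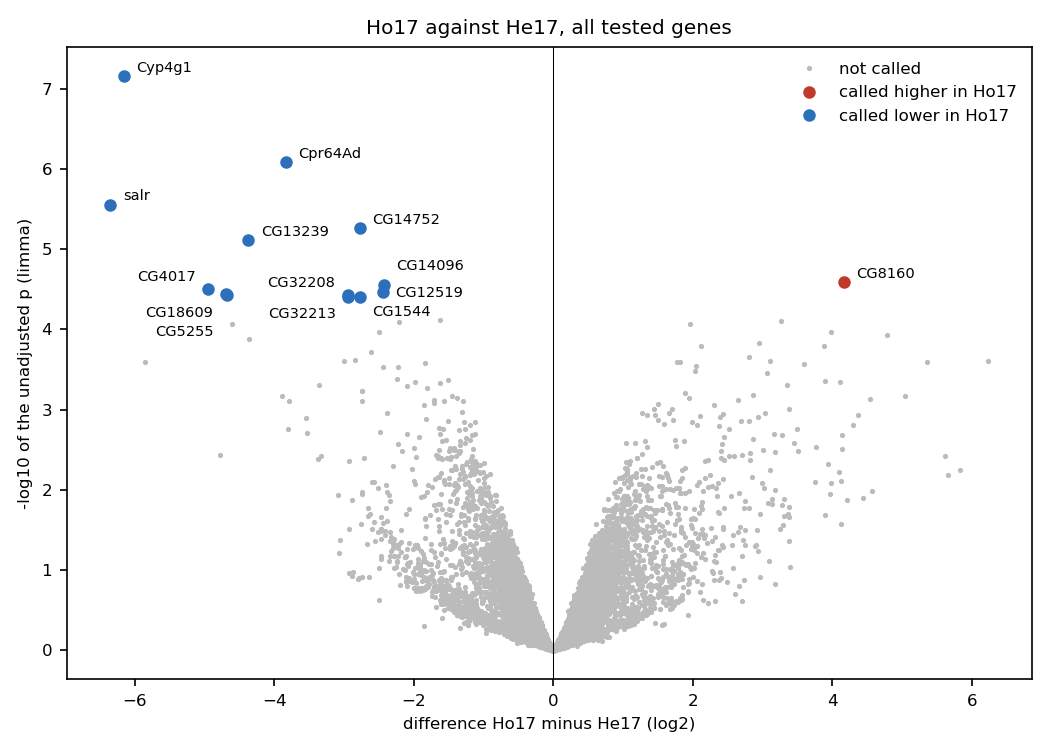
Each point is 1 of 11280 genes, with the difference Ho17 minus He17 on the log2 scale along the x axis and -log10 of the unadjusted limma p on the y axis. The 13 genes called lower lie at the upper left and CG8160, the gene called higher, at the upper right, and *Cyp4g1* has the smallest p.

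The smallest p of the comparison belonged to an oenocyte gene. *Cyp4g1* (CG3972, arm X), the cytochrome P450 that carries out the last step of hydrocarbon synthesis in oenocytes, had 1.99, 4.29 and 1.37 CPM in Ho17, against 101 and 135 CPM in He17, and 121 and 139 CPM in WT17. No Ho17 library came near either He17 library, and *Cyp4g1* fell by 6.16 on the log2 scale (SE 0.41, adjusted p = 0.000774 from limma), the only gene with an adjusted p under 0.001. Pooled over libraries its reads were 47.1-fold lower in Ho17. Since whole embryos were sequenced, fewer cells of a type and less RNA per cell cannot be told apart here.

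*CG18609* (arm 2R), which encodes a fatty acid elongase, had no read in any Ho17 library, against 6.63 and 4.89 CPM in He17, and 4.84 and 5.95 CPM in WT17. Against a floor of 3 reads over the group it was at least 107-fold lower in Ho17, and it was called (adjusted p = 0.0319 from limma). *CG17562* (arm 3R), a fatty acyl-CoA reductase gene that was not in the oenocyte list, showed the same pattern with 0 reads in each Ho17 library, against 4.38 and 6.44 CPM in He17, at least 105-fold lower by the same floor. It missed the threshold (adjusted p = 0.0514 from limma). The fatty acid synthase gene *FASN3* (CG17374) had 3.45, 7.95 and 2.53 CPM in Ho17, against 25.7 and 27.8 CPM in He17 (difference -2.73, SE 0.56, adjusted p = 0.128 from limma). Its paralogue *FASN2* (CG3524) had 2.75, 1.83 and 2.37 CPM in Ho17, against 13.0 and 7.55 CPM in He17 (difference -1.83, SE 0.40, adjusted p = 0.162 from limma). Neither fatty acid synthase gene was called, although the groups did not overlap for either.

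Of the 18 genes listed for oenocytes, 17 were tested and 2 were called lower in limma (6 lower and 2 higher at an unadjusted p under 0.05, against 4.24% and 4.89% of all genes, and 4 lower and 1 higher by the exact test, against 0.718% and 2.19%). All 3 Ho17 libraries lay below both He17 libraries for 13 of the 17 and above them for 2, against 15.4% and 11.7% of all genes tested. Of the 17, 6 reached the read minimum only through He17 and WT17, so for them a lower Ho17 level was partly set by that minimum. The other 11 reached it in the Ho17 libraries by themselves, and 9 of these had a negative difference. Among all genes that reached it in Ho17 by themselves, 5357 of 10681 had a negative difference. The median difference of the 17 was -1.48, beside -0.02 over all genes tested, and it was -0.79 without He17ab and -1.87 without He17c. The size of the difference was uneven within the list. A further elongase gene, *CG6660*, named like *Cpr* and *Hnf4* after its values were seen, had 0 reads in Ho17, against 1.38 and 4.84 CPM in He17 (difference -3.81, adjusted p = 0.182 from limma), whereas broadly expressed members such as *Cpr*, the electron donor of P450 enzymes, and *Hnf4*, a nuclear receptor gene, were within 0.37 of He17 on the log2 scale. The 2 members with higher levels in every Ho17 library, both named after their values were seen, were *svp*, which encodes a nuclear receptor, and the elongase gene *bond*. *svp* had 295, 234 and 98.1 CPM in Ho17, against 86.2 and 72.1 CPM in He17 (difference 1.67, adjusted p = 0.336 from limma), and *bond* had 64.1, 86.6 and 80.5 CPM in Ho17, against 51.9 and 43.7 CPM in He17 (difference 0.92, adjusted p = 0.498 from limma). Neither was called. The chordotonal organ list, whose precursors lie beside the oenocytes, had 0 of 9 tested members called in limma (0 at an unadjusted p under 0.05 and 0 by the exact test) and a median difference of 0.23.

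**Figure D2:**
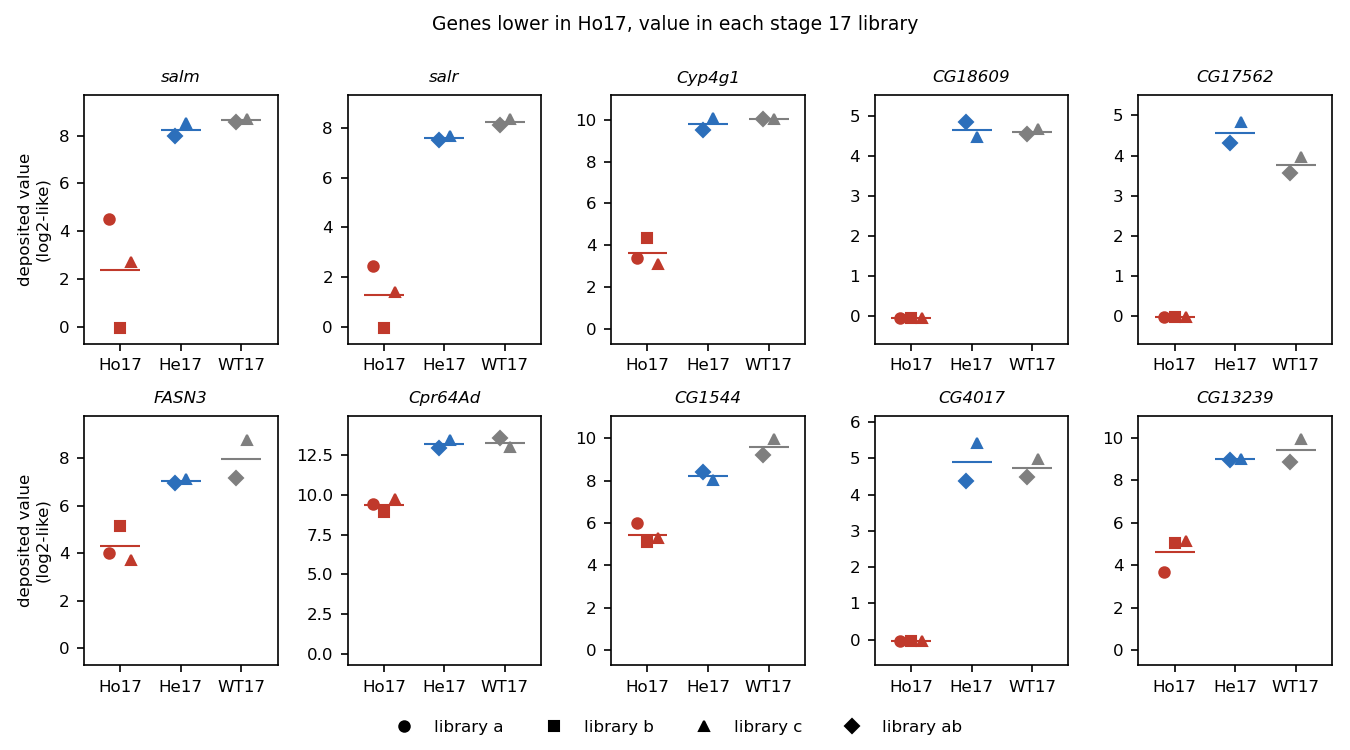
Deposited log2-like value (y axis) of 10 genes in each stage 17 library, with Ho17, He17 and WT17 from left to right on the x axis; symbols mark the library letter and lines the group means. Every Ho17 point lies below every He17 and WT17 point in all 10 panels, and CG18609, CG17562 and CG4017 sit at the value of 0 reads in the 3 Ho17 libraries.

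The remaining calls were a cuticle protein gene, genes of a metabolic enzyme and of proteases, and genes for which no role is given here. *Cpr64Ad* (CG1259, arm 3L), which encodes a cuticle protein with a chitin-binding domain, had 99.2, 72.2 and 113 CPM in Ho17, against 693 and 947 CPM in He17, and 946 and 727 CPM in WT17. It fell by 3.83 on the log2 scale (SE 0.33, adjusted p = 0.0046 from limma), the second smallest p of the comparison. *CG1544* (arm 3R), a relative of the 2-oxoglutarate dehydrogenase E1 subunit, had 14.8, 7.64 and 8.79 CPM in Ho17, against 58.0 and 46.0 CPM in He17, and 81.2 and 133 CPM in WT17. It fell by 2.77 (SE 0.38, adjusted p = 0.0319 from limma), and of the 13 genes it had the lowest He17 relative to WT17 (-1.37).

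A pair of protease genes had no reads in Ho17. *CG4017* (arm 2L), which encodes a metallocarboxypeptidase, had 0 reads in each Ho17 library, against 4.61 and 9.90 CPM in He17, and 4.62 and 7.51 CPM in WT17, and was at least 144-fold lower by the 3-read floor (adjusted p = 0.0319 from limma). *CG5255* (arm 3R), a trypsin-like serine protease gene, had 0 reads in each Ho17 library, against 5.88 and 5.42 CPM in He17, and 6.63 and 5.05 CPM in WT17, and was at least 106-fold lower (adjusted p = 0.0319 from limma). Both were thus lowly expressed genes that were present in each He17 and WT17 library. *CG13239* (arm 3L) fell by 4.37 on the log2 scale (SE 0.49, adjusted p = 0.0175 from limma), with 2.58, 7.48 and 7.85 CPM in Ho17, against 76.8 and 78.3 CPM in He17. *CG14752* (arm 2R) fell by 2.77 (SE 0.30, adjusted p = 0.0155 from limma), with 42.6, 49.1 and 48.9 CPM in Ho17, against 190 and 223 CPM in He17.

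The other 4 genes called lower lie in a run of 7 neighbouring genes on arm 3L. *CG14095*, *CG14096*, *CG32214*, *CG32208*, *CG12519*, *CG18294* and *CG32213* follow one another among the measured genes of the arm, and this run was chosen after its values were seen. *CG14096*, *CG32208*, *CG12519* and *CG32213* were called, each with an adjusted p of 0.0319 from limma, and all 7 genes were lower in every Ho17 library than in either He17 library. *CG32208* had 24.5, 47.3 and 24.9 CPM in Ho17, against 142 and 159 CPM in He17, and 104 and 136 CPM in WT17. *CG12519* had 42.3, 53.7 and 38.8 CPM in Ho17, against 153 and 176 CPM in He17, and 153 and 256 CPM in WT17. Over the run the differences lay between -2.94 and -2.21. The tested gene that follows, *hpRNA:CR32207*, is not counted in the run, although it was also lower in every Ho17 library (difference -1.19). Summed over the 7 genes, the level was 259, 444 and 295 CPM in Ho17, against 1311 and 1266 CPM in He17, and 940 and 1215 CPM in WT17. Ho17b was the highest Ho17 library for each of the 7 genes. Several of these small genes are alike in sequence, so the counting may have split reads among them, and the 7 values are not independent. At stage 16 none of them exceeded 15.6 CPM in any Ho16 or He16 library.

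**Figure D3:**
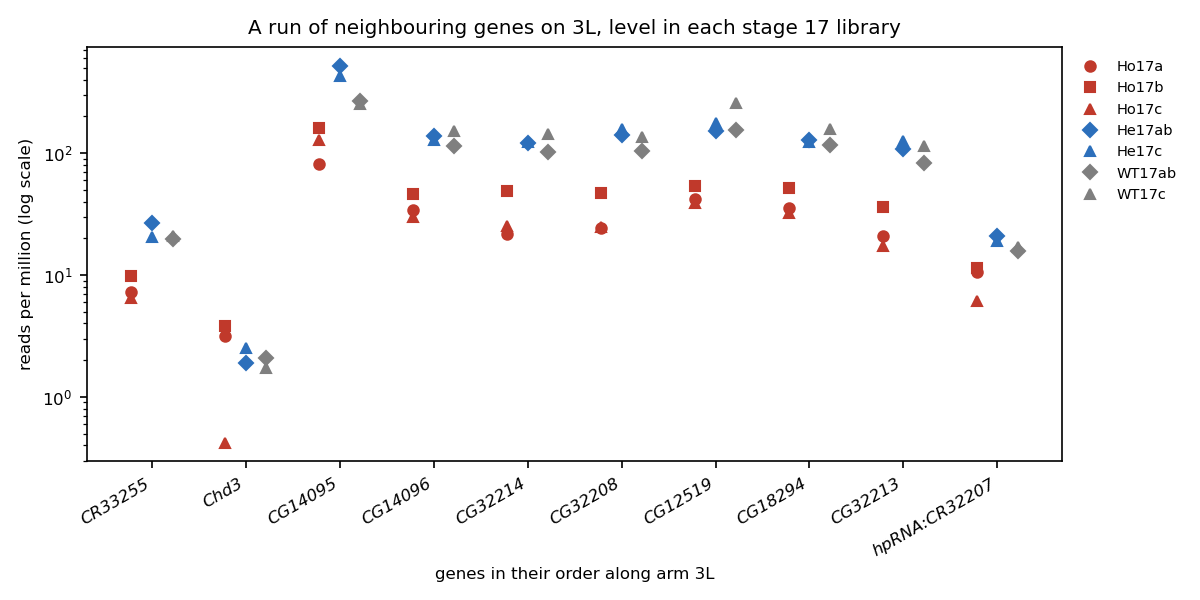
Level in CPM (y axis, log scale) of neighbouring tested genes in their order along arm 3L, 1 symbol per library, with Ho17 left, He17 in the middle and WT17 right at each gene. In the 7 genes from CG14095 to CG32213 the 3 Ho17 symbols lie below all He17 and WT17 symbols, while *Chd3*, the gene before the run, overlaps between groups.

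None of the listed structural genes of the cuticle was called, but *Cpr64Ad*, the cuticle protein gene called lower above, is not in that list. Of the 25 cuticle protein genes listed, 24 were tested and 0 were called in limma (3 higher and 6 lower at an unadjusted p under 0.05, against 4.89% and 4.24% of all genes, and 3 higher and 2 lower by the exact test, against 2.19% and 0.718%), with a median of -0.30. Every Ho17 library lay below both He17 libraries in 8 members and above them in 4, against 15.4% and 11.7% of all genes. *TwdlD*, a Tweedle protein gene named after its values were seen, had 649, 577 and 706 CPM in Ho17, against 2143 and 1715 CPM in He17 (difference -1.63, SE 0.24, adjusted p = 0.0514 from limma). *TwdlG* had 97.2, 81.0 and 151 CPM in Ho17, against 294 and 286 CPM in He17 (difference -1.85, adjusted p = 0.135 from limma). These members lay on the lower side with no overlap. On the higher side, *Edg91*, which encodes a glycine-rich cuticle protein, had 365, 422 and 289 CPM in Ho17, against 130 and 47.6 CPM in He17 (difference 2.81, SE 0.48, adjusted p = 0.0789 from limma). *TwdlO* had 192, 293 and 11.4 CPM in Ho17, against 3.23 and 1.91 CPM in He17 (difference 5.62, SE 1.47, adjusted p = 0.256 from limma), and *Cpr11B* had 7.22, 8.32 and 5.48 CPM in Ho17, against 1.15 and 0 CPM in He17 (difference 3.49, adjusted p = 0.182 from limma). For *TwdlO* the Ho17 libraries differed among themselves more than the lowest of them differed from He17.

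A single gene rose. *CG8160* (arm 2R), for which no role is given here, had 566, 549 and 218 CPM in Ho17, against 61.1 and 30.5 CPM in He17, and 23.8 and 35.4 CPM in WT17. The difference was 4.17 (SE 0.54, adjusted p = 0.0319 from limma), and pooled over libraries it was 10.1-fold higher in Ho17. *CG8160* was called in 9 of 17 alternative settings. Of the 7 fits with 1 library left out, only the 2 without Ho17b or without Ho17c called it. The 11 further genes named on the higher side were those with the smallest p among genes that lay above He17 in every Ho17 library. That separation was thus a condition of naming them. Their adjusted p-values were 0.0514 to 0.0789 in limma, so none was called. Among them were *Muc26B*, a mucin-related gene, with 1133, 973 and 633 CPM in Ho17, against 284 and 279 CPM in He17 (difference 1.96, SE 0.30), and *CG12171*, which encodes a short-chain dehydrogenase, with 159, 182 and 114 CPM in Ho17, against 54.3 and 44.8 CPM in He17 (difference 2.12, SE 0.35).

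The remaining 9 genes have no role given here, and most of them ranged widely among Ho17 libraries. *CG9759* had the largest difference, 6.24 (SE 1.09), with 1284, 792 and 158 CPM in Ho17, against 30.8 and 8.88 CPM in He17. *CG7294* had 996, 1228 and 408 CPM in Ho17, against 96.1 and 76.3 CPM in He17 (difference 3.99, SE 0.62). *CG15021* had 2248, 3856 and 887 CPM in Ho17, against 286 and 316 CPM in He17 (difference 2.96, SE 0.48). In each of these 3 genes Ho17c was the lowest Ho17 library. The others were *CG9682* with a difference of 5.35, *CG15597* with 4.79, *CG14377* with 3.88, *CG32603* with 3.27, *CG8157* with 1.82 and *CG3726* with 1.77. *CG8157* lies on the same arm as *CG8160*, and had 864, 962 and 572 CPM in Ho17, against 322 and 230 CPM in He17. *CG9757*, named in the text of the study, had 2558, 3942 and 493 CPM in Ho17, against 187 and 291 CPM in He17 (difference 3.17, SE 0.75, adjusted p = 0.196 from limma).

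Neighbouring genes also went together on the higher side. *CG17107*, *CG7299*, *CG7296* and *CG7294* follow each other among the tested genes of arm 2L, and each was higher in every Ho17 library than in He17, a run chosen after its values were seen. *CG7296* had 412, 597 and 66.4 CPM in Ho17, against 27.1 and 20.8 CPM in He17 (difference 4.37), and *CG17107* had 87.4, 70.3 and 9.90 CPM in Ho17, against 3.05 and 4.13 CPM in He17 (difference 3.77). *CG7299* had 535, 865 and 329 CPM in Ho17, against 224 and 55.2 CPM in He17 (difference 2.86). The next gene, *CG17108*, had 8.72, 3.24 and 3.74 CPM in Ho17, against 0.115 and 0.266 CPM in He17. It reached the read minimum only through Ho17 and is not counted in the run. None of the 4 was called (lowest adjusted p = 0.0581 from limma, for *CG7294*). Other runs of 5 or more neighbours in 1 direction occurred on arms 2L, 2R and 3R. They ranged from 6 lower genes on 2L (*Ssb-c31a* to *Snx6*), 0 with an unadjusted p under 0.05, to 5 higher genes on 3R (*CG10005* to *mfas*), all 5 with one. Such runs were thus also seen without nominal differences.

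**Figure D4:**
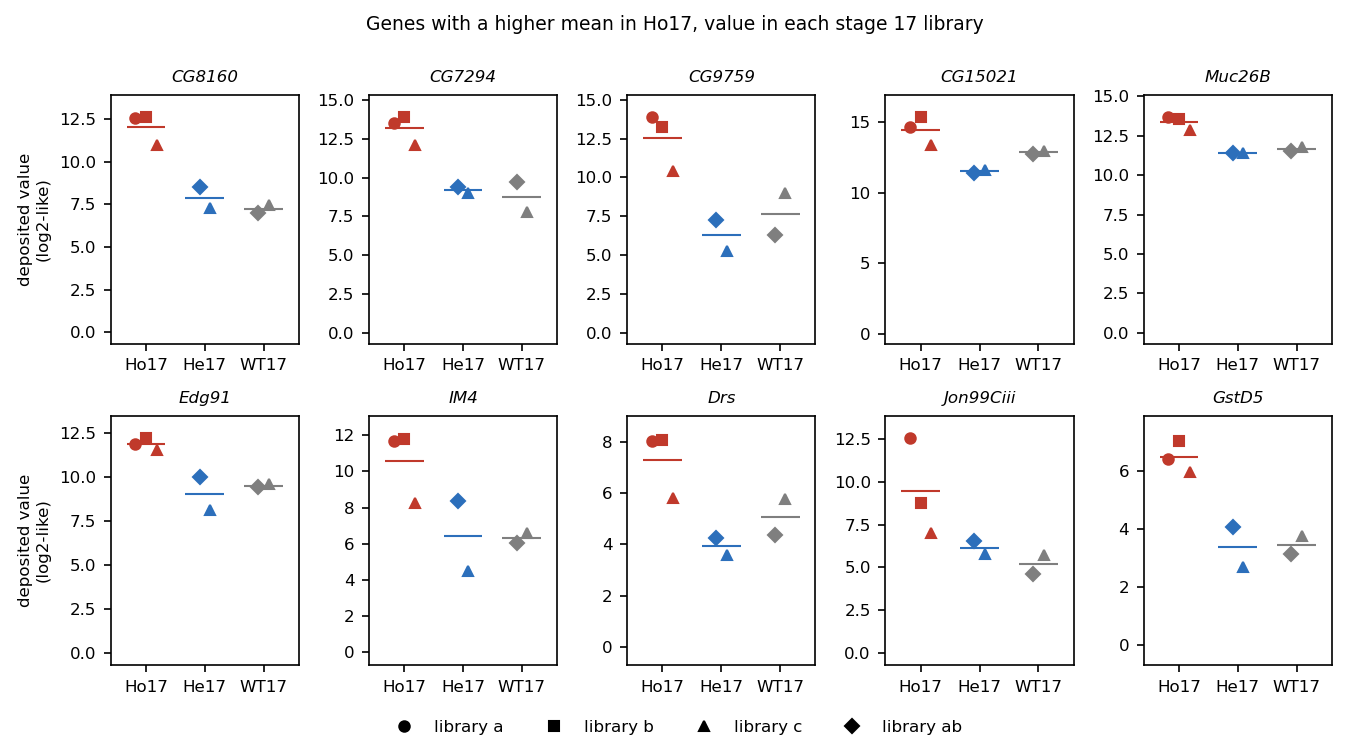
Deposited log2-like value (y axis) of 10 genes with a higher mean in Ho17, in each stage 17 library, with Ho17, He17 and WT17 from left to right and lines at the group means. Of these genes CG8160 alone was called; Ho17c is the lowest Ho17 library in each panel, and in the *IM4* panel it lies at the level of He17ab.

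Immune and digestive genes had higher mean levels in Ho17 without any call. The 15 immune induced peptide genes listed, targets of the Toll pathway in the fat body, had 14 members tested and 0 called in limma (7 higher at an unadjusted p under 0.05, against 4.89% of all genes, and 11 higher by the exact test, against 2.19%). The median difference of the 14 was 2.45, and 12 of them reached the read minimum without the Ho17 libraries. *IM4* had 331, 343 and 50.3 CPM in Ho17, against 56.3 and 5.06 CPM in He17 (difference 4.13, SE 1.22, adjusted p = 0.314 from limma). *IM23* had 72.8, 117 and 16.2 CPM in Ho17, against 14.5 and 0.622 CPM in He17 (difference 4.09, SE 1.16, adjusted p = 0.297 from limma). The groups overlapped for *IM4* and nearly met for *IM23*, with Ho17c the lowest Ho17 library in 13 of the 14 genes and He17ab above He17c in 13 of the 14. Summed over the list the level was 1192, 1401 and 302 CPM in Ho17, against 427 and 97.9 CPM in He17, and 163 and 162 CPM in WT17. Without Ho17c, 2 members were called higher, in a fit that called 60 genes higher in all. The median of the list was 0.77 without He17c and 3.99 without He17ab.

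Of the antimicrobial peptide genes, 9 of 20 were tested and 0 were called in limma (3 higher at an unadjusted p under 0.05, against 4.89% of all genes, and 3 by the exact test, against 2.19%), with no overlap and higher Ho17 levels in 4, against 11.7%. Of the 9, 6 did not reach the read minimum without the Ho17 libraries, and the counts are given as a description. *Drs*, which encodes the antifungal peptide drosomycin, had 47.3, 45.8 and 12.4 CPM in Ho17, against 4.15 and 2.31 CPM in He17, and 4.17 and 13.0 CPM in WT17 (difference 3.38, SE 0.71, adjusted p = 0.145 from limma). *Listericin* had 51.5, 9.52 and 1.21 CPM in Ho17, against 0.461 and 0 CPM in He17 (difference 4.45, SE 1.44, adjusted p = 0.355 from limma). Among 21 tested genes of immune recognition and signalling, with 0 called in limma (3 higher and 0 lower at an unadjusted p under 0.05, against 4.89% and 4.24% of all genes, and 2 higher by the exact test, against 2.19%), *GNBP3*, a sensor of fungal glucans, had 16.6, 25.5 and 6.37 CPM in Ho17, against 5.36 and 1.29 CPM in He17 (difference 2.21, adjusted p = 0.329 from limma). *Tsf1*, the iron carrier transferrin, had 39.2, 8.11 and 0.685 CPM in Ho17, against 0.692 and 0 CPM in He17 (difference 3.90, SE 1.40, adjusted p = 0.423 from limma). Ho17a was the highest library for *Listericin* and for *Tsf1*, and both genes reached the read minimum only through Ho17.

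The same library stood out in the midgut list. Of 35 digestive enzyme genes tested, 0 were called in limma (13 higher and 1 lower at an unadjusted p under 0.05, against 4.89% and 4.24% of all genes, and 19 higher by the exact test, against 2.19%), 29 differences were positive, and the median was 1.61. Summed over the list the level was 4747, 1728 and 823 CPM in Ho17, against 1032 and 865 CPM in He17, and 806 and 855 CPM in WT17. Ho17c thus had a lower sum than both He17 libraries. *Jon99Ciii*, one of the Jonah serine proteases, had 555, 67.5 and 25.8 CPM in Ho17, against 20.1 and 12.5 CPM in He17 (difference 3.30, SE 1.26, adjusted p = 0.460 from limma), and *Jon25Biii* had 510, 156 and 60.2 CPM in Ho17, against 42.2 and 33.5 CPM in He17 (difference 2.81, SE 0.97, adjusted p = 0.397 from limma). Jonah genes have near-identical copies, among which the counting may have split reads. The trypsin gene *alphaTry* overlapped between groups, with 155, 50.9 and 19.8 CPM in Ho17, against 22.2 and 3.60 CPM in He17. Without Ho17a the median of the list was 1.01.

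**Figure D5:**
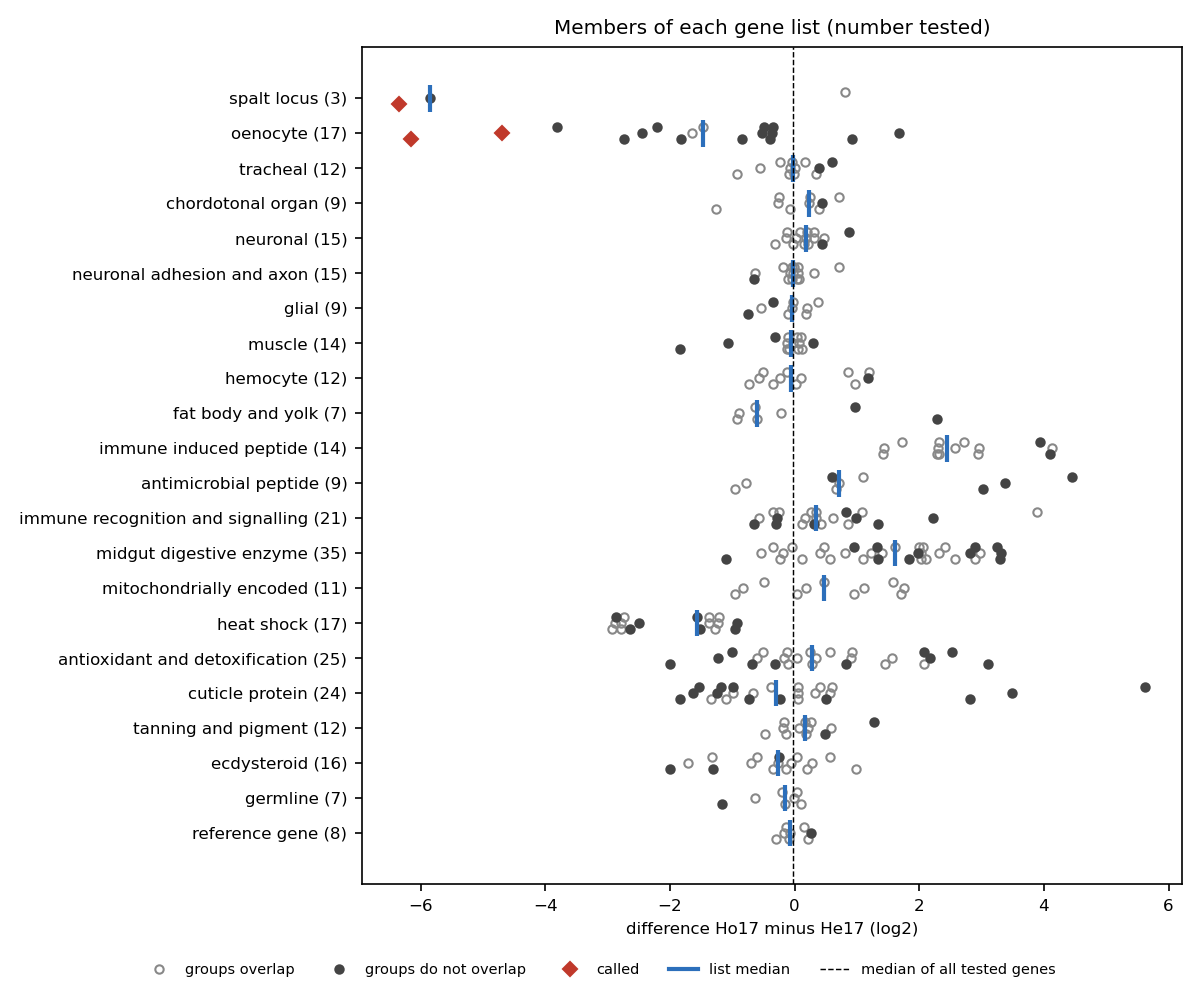
Difference Ho17 minus He17 on the log2 scale (x axis) for each tested member of the 22 gene lists (rows, number tested in brackets), with the list median as a vertical bar and the median of all tested genes as a dashed line. Apart from the *spalt* locus, calls among the lists occur in the oenocyte list alone, and the called cuticle protein gene *Cpr64Ad* is in none of the lists. The oenocyte median is -1.48 (-0.79 without He17ab), with 6 of the 17 members reaching the read minimum only through He17 and WT17. The medians of the immune induced peptide and midgut lists are 2.45 and 1.61, and that of the heat shock list is -1.57.

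Detoxification genes were mixed. Of 25 tested genes of the antioxidant and detoxification list, 0 were called in limma (6 higher and 3 lower at an unadjusted p under 0.05, against 4.89% and 4.24% of all genes, and 5 higher and 1 lower by the exact test, against 2.19% and 0.718%). The median was 0.28, and -0.09 without Ho17b. The groups did not overlap in 5 members higher in Ho17 and 5 lower (20% each), against 11.7% and 15.4% of all genes. *GstD5*, a glutathione S-transferase gene, had 19.0, 26.0 and 13.9 CPM in Ho17, against 3.57 and 0.844 CPM in He17, and 1.34 and 2.76 CPM in WT17 (difference 3.11, SE 0.54, adjusted p = 0.0789 from limma). The cytochrome P450 genes *Cyp12a4* and *Cyp6a8* did not overlap either. *Cyp12a4* had 50.8, 50.3 and 15.6 CPM in Ho17, against 8.13 and 6.71 CPM in He17 (difference 2.52, adjusted p = 0.256 from limma), and *Cyp6a8* had 29.0, 27.9 and 8.16 CPM in Ho17, against 6.34 and 2.93 CPM in He17 (difference 2.17, adjusted p = 0.307 from limma). *Cyp18a1*, whose product inactivates ecdysteroids and which is also in the ecdysteroid list, had 89.9, 45.0 and 153 CPM in Ho17, against 251 and 249 CPM in He17 (difference -1.99, SE 0.59, adjusted p = 0.318 from limma). The peroxiredoxin gene *Prx2540-1* was split by library and not by genotype, with 822, 50.0 and 1460 CPM in Ho17, against 22.1 and 1269 CPM in He17 (difference 1.56, adjusted p = 0.890 from limma), and its direction turned without He17ab (-2.05). *Prx2540-1* has a close copy, *Prx2540-2*, so its reads are uncertain.

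Heat shock genes varied widely among libraries of 1 genotype. All 17 tested members had a negative difference, with a median of -1.57, and 0 were called in limma (2 lower at an unadjusted p under 0.05, against 4.24% of all genes, and 8 by the exact test, against 0.718%). Every Ho17 library lay below both He17 libraries in 7 of the 17, against 15.4%. Summed over the list the level was 2158, 670 and 2163 CPM in Ho17, against 4739 and 2631 CPM in He17, while the WT17 libraries had 6089 and 1042 CPM. The WT17 range therefore covered the sums of Ho17a and Ho17c and of both He17 libraries. *Hsp70Bc* had 61.7, 6.22 and 27.8 CPM in Ho17, against 194 and 64.6 CPM in He17, and 241 and 8.63 CPM in WT17 (difference -2.86, SE 1.60, adjusted p = 0.658 from limma), and the *Hsp70* copies share sequence, so the 6 measured copies are not separate evidence. *Osi6*, named in the text of the study, also differed within Ho17, with 1343, 10.5 and 1774 CPM, against 79.9 and 49.6 CPM in He17 (difference 2.70, SE 2.15, adjusted p = 0.774 from limma).

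Markers of other tissues were compared in the same way, beside the shares over all genes tested. In the neuronal list 0 of 15 tested genes were called in limma (1 higher and 0 lower at an unadjusted p under 0.05, against 4.89% and 4.24% of all genes, and 0 by the exact test, against 2.19% and 0.718%), with a median of 0.18, and -0.18 without He17ab. Counts this small do not set the list apart from all genes tested. *ChAT*, which makes acetylcholine, had 1304, 1171 and 752 CPM in Ho17, against 694 and 538 CPM in He17 (difference 0.87, SE 0.32, adjusted p = 0.429 from limma). Genes of neuronal adhesion and axons had a median of -0.03, and 0 of 15 were called in limma (0 at an unadjusted p under 0.05 and 0 by the exact test, against the same shares). Their largest difference was that of *Ama*, a secreted adhesion protein gene, with 56.2, 5.70 and 11.2 CPM in Ho17, against 11.0 and 10.2 CPM in He17 (difference 0.71, SE 0.86, adjusted p = 0.871 from limma), with the opposite sign without Ho17a (-0.35). It was followed by *CadN*, a cadherin of axons, with 215, 121 and 217 CPM in Ho17, against 251 and 262 CPM in He17 (difference -0.65, SE 0.35), and *Fas3*, with 333, 211 and 384 CPM in Ho17, against 375 and 512 CPM in He17 (difference -0.64, SE 0.34). *CadN* and *Fas3* had an adjusted p of 0.638 in limma, with Ho17b the lowest library.

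Tracheal (12 genes), glial (9), muscle (14), hemocyte (12), germline (7) and reference genes (8) had medians between -0.16 and -0.02 with 0 called in limma (1 higher and 2 lower at an unadjusted p under 0.05, against 4.89% and 4.24% of all genes). The exact test called 1 of them lower, *Act87E*, against 0.718% of all genes. That muscle actin gene had 500, 634 and 800 CPM in Ho17, against 2228 and 2187 CPM in He17, and 1746 and 1119 CPM in WT17 (difference -1.84, SE 0.32, adjusted p = 0.0789 from limma). The other 13 muscle genes were within 1.06 of He17 on the log2 scale, and the muscle list as a whole summed to 44317, 47354 and 53215 CPM in Ho17, against 52929 and 51785 CPM in He17.

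The 13 genes that fell were also measured at stage 16, in libraries not used for the calls. There 12 of the 13 were tested, 11 had a negative Ho16 minus He16 difference, 5 of them with an unadjusted p under 0.05 (1.31% of all genes tested), and 7 did not overlap and were lower in Ho16 (13.0%). Each of these counts includes *salr*, which the deficiency removes, and the negative differences include the 4 called genes of the 3L run, which are not independent. Several of the genes were near the floor, such as *CG13239* with 0.211, 0 and 0 CPM in Ho16, against 0.686 and 0.0924 CPM in He16. Ho16a and Ho16b held 4742719 and 6040923 reads on genes, against 14585271 and 21644746 in He16ab and He16c. Over all genes tested at both stages, 5826 of 10407 had a negative difference at stage 16. *Cyp4g1* had 19.2, 3.97 and 0 CPM in Ho16, against 112 and 146 CPM in He16, and *CG1544* had 2.53, 1.32 and 5.96 CPM in Ho16, against 53.6 and 39.8 CPM in He16. *CG17562* had 2.32, 0.166 and 0 CPM in Ho16, against 11.9 and 7.53 CPM in He16. For these 3 genes the groups were thus apart at both stages. *CG8160* was not, with 3.80, 4.30 and 18.9 CPM in Ho16, against 7.27 and 5.73 CPM in He16. The difference between the 2 stages was itself tested, and limma called 0 of 11584 genes (320 higher, 2.76%, and 215 lower, 1.86%, at an unadjusted p under 0.05). For *CG8160* that difference was 3.86 (unadjusted p = 0.0015 from limma), and for *Cyp4g1* it was -0.12 (unadjusted p = 0.949 from limma). With sample quality weights the same test called 189 genes higher and 63 lower. At stage 16 alone, limma called 0 of 10560 genes (110 higher, 1.04%, and 138 lower, 1.31%, at an unadjusted p under 0.05).

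The genes called lower were also placed among those that change with stage in the wild type. Of the 13 genes, 7 were among the genes that rose between WT16 and WT17 in limma, which were 1220 of the 11280 genes tested. That comparison shares the WT17 libraries with the fit, and 4 of the 13 reached the read minimum only through He17 and WT17. The count is therefore given as a description. Of those 1220 genes, 184 were nominally higher in Ho17 than in He17 (15.1%, against 4.89% of all genes) and 126 nominally lower (10.3%, against 4.24%), with a median of 0.08. Both shares lay above those of all genes tested, and the difference between the shares was not tested. In the 314 tested genes that fell between WT16 and WT17, Ho17b was the lowest Ho17 library in 236, against 3563 of all 11280 genes tested. In the 1220 genes that rose it was the lowest in 142. Of the 314 genes, 0 were called in limma (13 higher, 4.14%, and 7 lower, 2.23%, at an unadjusted p under 0.05, against 4.89% and 4.24% of all genes). Without Ho17b, 12 of the 314 genes were called higher, in a fit that called 15 genes higher in all.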

How the data were processed

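mRNA was sequenced from 14 libraries of pooled embryos, 7 of them of stage 17. The authors aligned reads with Bowtie, counted them on genes of FlyBase r5.22 and deposited variance-stabilized values made with DESeq, on a log2-like scale, for 13781 genes. The deposited values come without counts or library sizes, and the read totals the study gives elsewhere were not used here. Whole reads were recovered along the common curve of the values: 99.6% of 158533 values above 0 reads lay within 0.05 of a whole read. CPM is recovered reads per 1000000 reads on genes. A gene was tested if 2 or more libraries held 10 reads, scaled to the median library size, and the 7 libraries together held 15. This left 11280 genes. The test was that of limma 3.58.1 (R 4.3.3) on the deposited values of the 7 stage 17 libraries, with 1 mean per genotype, a trended prior worth 5.32 degrees of freedom beside the 4 residual ones, and p-values adjusted after Benjamini and Hochberg. The difference between stages used all 14 libraries, with 1 mean for each of 6 conditions.

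Alternatives were all 14 libraries without and with sample quality weights, 5 libraries, no filter, a threshold of 0.001, the library letter as a block, log2 of normalized reads with pseudocounts of 1 and 0.1, quantile normalization, voom on recovered reads, an exact negative binomial test (adjusted p under 0.001) and each library left out. Reads of 11280 genes were also simulated, at a dispersion of 0.04. Of these genes, 200 were changed by 3 on the log2 scale between Ho17 and He17. Here limma, voom and the exact test each recovered 100%, with 9, 9 and 0 false calls. Over the genes tested, the measured libraries had standard deviations around their group means of 0.579 (He17ab and He17c) to 0.815 (Ho17b) on the log2 scale. The simulation was not matched to that spread, so it gives no power for these data.

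Genes named are the *spalt* locus and its neighbours, called members and the 4 largest differences of each of 22 lists at 5 CPM or more, up to 12 genes per direction outside the lists, and genes the study names. Those outside the lists were drawn only from genes whose Ho17 and He17 libraries did not overlap. Others are marked as chosen after their values were seen. The comparison, the members and the lists were chosen with earlier results of these data known. Symbols and gene order came from a Release 6 annotation, so no coordinates are given. Summaries used Python 3.11.15, numpy 2.4.6 and pandas 2.3.3.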

Additional observations from a re-analysis of the deposited data

How the results depend on the processing

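The median difference over all genes, which each scaling holds near 0, lay between -0.06 and 0.02 under the alternatives. Against 13 genes lower and 1 higher in Ho17, limma gave 0 lower and 0 higher with a spread pooled over all 14 libraries (248 and 308 at an unadjusted p under 0.05), 47 lower and 45 higher when those libraries had quality weights, 3 lower and 0 higher with 5 libraries, 3 lower and 0 higher with a pseudocount of 0.1, and 1 lower and 0 higher at a threshold of 0.001. Voom gave 8 lower and 1 higher, and the exact test 81 lower and 247 higher. No filter gave 15 lower, and a pseudocount of 1 and quantile normalization gave 13. Of the 13 genes lower, 12 were also called with quality weights, 8 by voom and 3 each with 5 libraries and a pseudocount of 0.1. Each library left out in turn gave 0 to 37 genes lower and 0 to 60 higher: without Ho17c 37 and 60, without Ho17b 21 and 15, without Ho17a 5 and 0, without He17ab 2 and 3, without He17c 0 and 0, and without WT17ab or WT17c 3 and 0. *Cyp4g1* and *Cpr64Ad* were called in 15 of the 17 settings at a threshold of 0.05, missing the threshold without He17c (adjusted p = 0.0543 and 0.129 from limma) and with all 14 libraries; at a threshold of 0.001 *Cyp4g1* alone remained. With the library letter as a replicate block there were 15 genes lower, the 13 included, and 11 higher; libraries that share a letter deviated together with correlations of 0.002 to 0.235, so the letters were not taken as pairs. The difference between the stages, 0 genes, became 189 higher and 63 lower with quality weights, and ran from 0 to 5 higher and stayed at 0 lower over the libraries left out (5 higher without Ho17b and 3 without Ho16c). The difference of *Prx2540-1* ran from -2.05 without He17ab, where its direction turned, to 5.17 without He17c. That of *Ama* ran from -0.35 without Ho17a, where its direction turned, to 1.48 without Ho17b. The causes were not tested.

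Without He17ab or He17c the remaining He17 library was assumed to vary like the other groups. Counts of genes changed with single libraries, while the differences of the genes called kept their direction in all settings that gave a finite value. For *salm* and *salr*, at 0 reads in Ho17b, and for the genes with 0 reads in each Ho17 library, the fitted log2 difference depends on the value assigned to 0 reads.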

Other observations

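Calls were spread over the chromosome arms. Genes with an unadjusted p under 0.05 made up 8.76% of those tested on arm 2L, which carries the deficiency, 9.60% on 2R, 9.33% on 3L, 9.30% on 3R and 8.56% on X, beside 9.13% of all genes. Of the 14 calls, 6 lay on 3L, 4 of them in the run of neighbours, 3 on 2R, 2 each on 2L and 3R, and 1 on X.

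Mitochondrially encoded genes summed to 615, 934 and 2534 CPM in Ho17, against 513 and 1266 CPM in He17, and 379 and 3348 CPM in WT17, so that the library with the letter c was the highest of each genotype. None of the 11 tested was called in limma (0 at an unadjusted p under 0.05, 2 higher by the exact test). Ecdysteroid genes had a median of -0.26 with 0 of 16 called in limma (1 lower at an unadjusted p under 0.05 and 1 by the exact test), and tanning and pigment genes a median of 0.17 with 0 of 12 called (1 higher at an unadjusted p under 0.05, 0 by the exact test). In the fat body and yolk list 7 genes were tested, with a median of -0.60 (0.23 without Ho17a) and 0 called in limma (2 higher at an unadjusted p under 0.05, 0 by the exact test). The 2 nominally higher genes include *Lsp2*, which reached the read minimum only through Ho17. Of the other 6 members, 1 had a positive difference. Of all genes tested, 4.89% were higher and 4.24% lower at an unadjusted p under 0.05, and 2.19% and 0.718% by the exact test.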
